A study of Sus scrofa with 8 samples.

Results

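Open chromatin was examined around the genes of the AP-1 transcription factors FOS, FOSB, FOSL1, FOSL2, JUN, JUNB, JUND and ATF3 in pig muscle satellite cells. Satellite cells are the resident stem cells of skeletal muscle, which divide and then fuse into muscle fibres. The assay was ATAC-seq, in which a transposase inserts adapters into accessible DNA, so that stretches with many insertions are called as peaks. Peaks of all 8 libraries that overlapped by at least 1 bp were merged, which gave 178498 regions on chromosomes 1 to 18 and X. A region was assigned to the AP-1 genes when the nearest end of a protein-coding gene lay within 50 kb and belonged to 1 of these 8 genes. This gave 72 AP-1 regions among 114950 regions with any gene end within 50 kb.

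The labels give 4 groups of 2 libraries each. WT 0 h and CBP 0 h are labelled as proliferating cells, and WT 60 h and CBP 60 h as differentiating cells. The protocol field, which is the same for every sample, names SGC-CBP30 at 5 uM/ml. This small molecule inhibits the acetyl-lysine reading domains of CBP and its relative EP300, both histone acetyltransferases. Exposure is given as 48 h for proliferating cells and 60 h for differentiating ones. Since no label ties the compound to the CBP groups, WT and CBP are used as group names only. A cell line name, C3H, is also given, although the species is pig and the peaks carry pig coordinates. Nothing in the labels says whether the libraries of a group came from separate animals or cultures.

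AP-1 factors bind DNA as pairs of basic leucine zipper proteins. JUN proteins can pair with themselves or with FOS proteins, whereas FOS proteins need a JUN partner. FOS, FOSB, JUN and JUNB are classic immediate early genes, switched on within minutes by serum and growth factors. FOSL1 and FOSL2 follow more slowly and lack the strong activation domain of FOS, JUND is often present at a steady level, and ATF3 is a stress-induced member that can repress transcription. In satellite cells and myoblasts AP-1 is known for its link with activation and proliferation.

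The lists held 82696 to 135528 peaks per library on these chromosomes, with all 4 lists at 0 h longer than all 4 at 60 h. The lists give no read totals. The most frequent local background, used as a measure of relative depth, was 1.43 to 2.08 times that of the shallowest library at 0 h and 1 to 1.21 times at 60 h. The summit pileup, the number of fragments stacked at a peak's highest point, was recovered for each peak from the deposited fold and −log10 p-value. In each of the 4 groups the summit pileups of both libraries differed by less than Poisson counting noise, with a chi-square per degree of freedom of 0.548 to 0.588. Between WT and CBP libraries of 1 time it was 0.921 to 1.49, and between times it was 1.62 to 2.60. A maximum varies less than a count at a fixed position, so this value alone does not show that the libraries are repeats, but each pair may amount to 1 sample. Both values are printed for each group, no mean with SD is given, and the adjusted p-values below compare these libraries rather than independent cultures. Regions near markers of satellite and myogenic cells were called in all 8 libraries in 23 of 111 cases (20.7%). The same share was 30.0% for fibroblast, 30.6% for endothelial, 20% for immune, 33.3% for adipocyte and 9.68% for neural and Schwann markers, so peak calls near markers did not set the labelled cell type apart. A region within 1 kb of a gene end was called in all 8 libraries for 5 of the 9 satellite and myogenic markers, namely PAX7, MYF5, MYOD1, DES and CDH15, and for none of MYOG, ITGA7, VCAM1 and CALCR. The same held for the fibroblast markers PDGFRB, TCF21, LUM, THY1, COL1A1 and TWIST2, but not for PDGFRA and DCN. It also held for endothelial PECAM1, KDR and ERG, immune CD68, SPI1 and CD3E, adipocyte PPARG, PLIN1 and CEBPA, and neural NCAM1. It did not hold for the other markers analysed. Calls at gene ends thus did not set the labelled cell type apart either.

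The AP-1 regions were unevenly spread over the 8 genes. FOSL2, on chr3:110820403-110842903, had 19 regions, and FOS, on chr7:98449508-98451971, had 18. ATF3, on chr9:130772259-130829678, had 15 and JUN, on chr6:153686425-153687635, had 8. JUNB, on chr2:66214086-66219435, had 4, and JUND, on chr2:59530991-59532846, had 3. FOSB, on chr6:51836780-51844531, had 3 and FOSL1, on chr2:6430158-6436173, had 2. All coordinates are on Sscrofa11.1. The small numbers at FOSB, FOSL1, JUNB and JUND go with close neighbouring genes. When every region within 50 kb was counted, whichever gene was nearest, FOSB had 22, JUNB 20, FOSL1 17 and JUND 14, against 19 for FOS, 24 for FOSL2, 26 for ATF3 and 10 for JUN.

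AP-1 regions were called in many libraries. Of the 72 regions, 38 (52.8%) were called in all 8 libraries, against 31.8% of all regions assigned to a gene, and 11 (15.3%) were called in 1 library, against 21.4%. Their median width was 767.5 bp, against 673 bp. Few lay inside genes, with 22 of 72 (30.6%) overlapping a gene body against 62.8%. A gene end lay within 5 of the 72 (6.94%), against 10.3%. FOSB, FOSL1 and JUND had every region called in every library, while 9 of 18 FOS regions, 8 of 19 FOSL2 regions, 6 of 15 ATF3 regions, 4 of 8 JUN regions and 3 of 4 JUNB regions were.

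**Figure D1:**
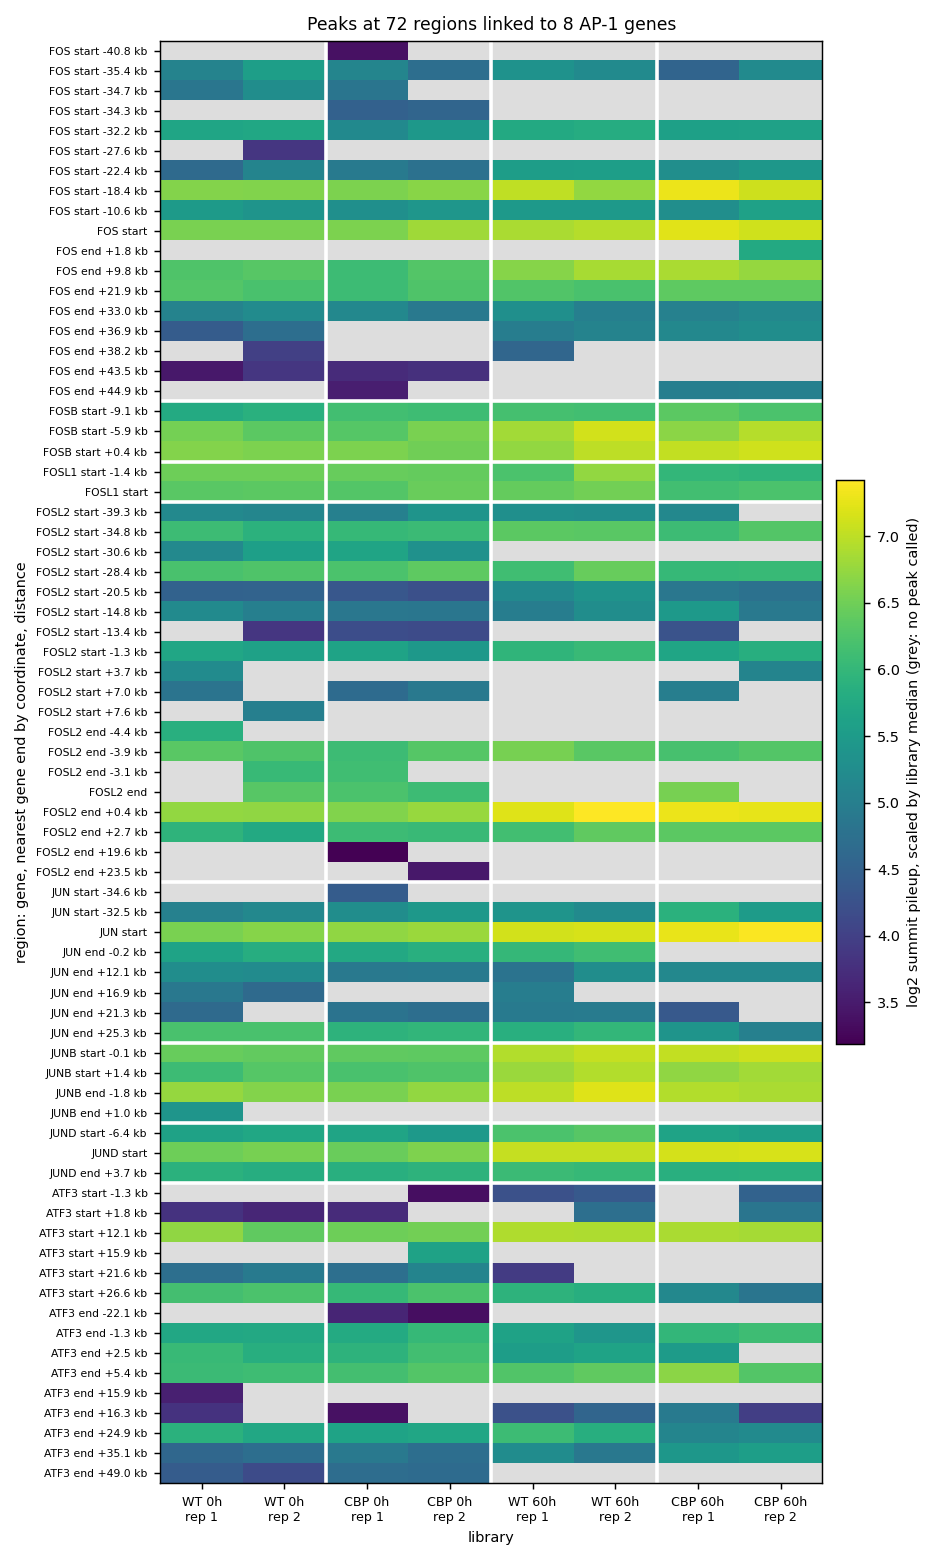
Log2 summit pileup, scaled by the median of each library, of the 72 AP-1 regions (rows, by gene and distance from the gene start or end by coordinate) in the 8 libraries (columns), with grey where no peak was called. The rows called in all 8 libraries include the strong regions at the FOS, JUN and JUND starts, and the grey cells lie mostly in regions of FOS, FOSL2 and ATF3.

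Most of the strongest regions lay at or near the genes themselves, and 1 of similar height lay 18.4 kb before the FOS start, with scaled pileups of 95.7 to 157.8. In what follows, start and end are the lower and higher coordinate of a gene, since the gene table used here gives no strand. Pileups are given as recovered and, for comparison between libraries, scaled by the library's median over the 50575 regions called in all 8 libraries. The 2556 bp region over the JUN start (chr6:153684169-153686724) had pileups of 129 and 152 in WT 0 h, 161 and 129 in CBP 0 h, 111 and 97 in WT 60 h, and 112 and 118 in CBP 60 h. Scaled, these were 95.2 and 100.5, 104.9 and 109.9, 140.5 and 143.2, and 155.0 and 168.6. On this scale all 4 libraries at 60 h lay above all 4 at 0 h, whereas the unscaled pileups, from deeper libraries at 0 h, ran the other way. The 2806 bp region over the FOS start (chr7:98447487-98450292) had scaled pileups of 95.2 and 95.2 in WT 0 h, 95.7 and 113.3 in CBP 0 h, 117.7 and 124.0 in WT 60 h, and 150.9 and 138.6 in CBP 60 h. Again the 60 h values lay above the 0 h values in both labels. The 2765 bp region over JUND (chr2:59530321-59533085) had 89.3 and 93.9 in WT 0 h, 87.3 and 97.1 in CBP 0 h, 131.6 and 132.9 in WT 60 h, and 142.6 and 142.9 in CBP 60 h. It covered the whole annotated gene.

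The remaining genes each had a region of similar height. At FOSB the 2962 bp region starting 0.4 kb inside the gene (chr6:51837194-51840155) had 98.9 and 96.5 in WT 0 h, 95.7 and 91.1 in CBP 0 h, 106.3 and 128.4 in WT 60 h, and 130.1 and 138.6 in CBP 60 h. At FOSL2 the tallest region lay 0.4 kb after the gene end (chr3:110843333-110844414), with 107.0 and 105.8, 98.3 and 109.0, 148.1 and 171.3, and 157.8 and 154.3 in the same order. At JUNB it lay inside the gene, 1.8 kb before the end (chr2:66216848-66217623), with 107.8 and 99.2, 94.4 and 106.5, 127.8 and 147.6, and 121.8 and 118.6. In these regions too the 60 h libraries were the higher ones. FOSL1 differed from them. The FOSL1 start region (chr2:6430079-6431475) ranged from 70.6 to 91.5 over all 8 libraries with no separation by time. ATF3, a gene of 57420 bp, had no region over its start, and the nearest one, 1.3 kb before it, was weak, with recovered pileups of 12 to 16 in the 4 libraries that had a peak there. The tallest ATF3 region lay 12.1 kb inside the gene (chr9:130784368-130786720), with scaled pileups of 84.0 to 104.8 at 0 h and 115.7 to 120.2 at 60 h. There the 60 h libraries were again the higher ones on this scale.

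The study's design first asks how accessibility differs between proliferation and differentiation. By calls in the deposited lists, fewer AP-1 regions were present at 60 h than at 0 h. The WT 0 h libraries held 56 and 55 of the 72, WT 60 h held 48 and 46, CBP 0 h held 59 and 54, and CBP 60 h held 47 and 45. This difference did not remain when every list was cut to its 82696 strongest peaks. The numbers were then 42 and 44 in WT 0 h, 48 and 46 in WT 60 h, 45 and 41 in CBP 0 h, and 46 and 45 in CBP 60 h. All regions assigned to a gene were called in 65.6% to 74.7% of cases at 0 h and 46.2% to 48.4% at 60 h as deposited, and in 45.3% to 48.1% with equal peak numbers. AP-1 regions thus exceeded the share of all assigned regions in each of the 8 libraries under both settings, by 1.04 to 1.14 times at 0 h and 1.31 to 1.38 times at 60 h as deposited.

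**Figure D2:**
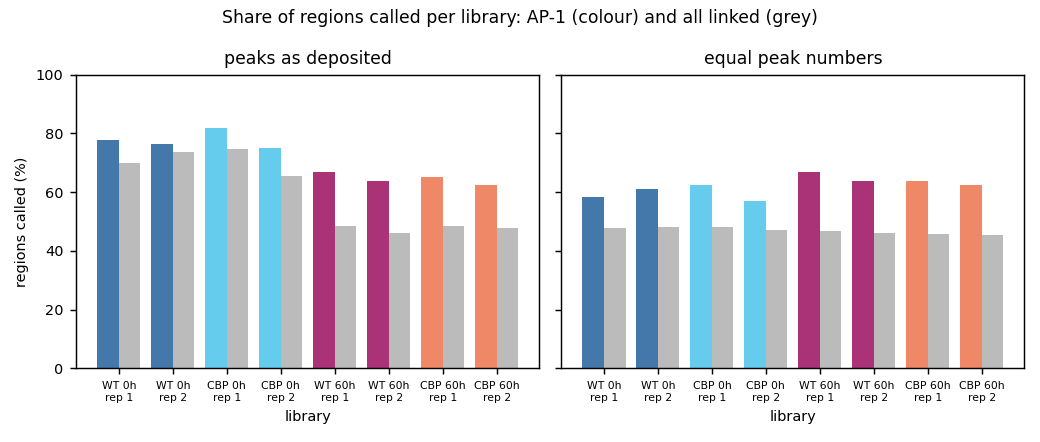
Share of the 72 AP-1 regions (coloured bars) and of all 114950 regions assigned to a gene (grey bars) that were called in each library, as a percentage, with the deposited lists (left) and with 82696 peaks in each list (right). The coloured bars exceed the grey ones in every library, and the fall from 0 h to 60 h seen on the left is absent on the right.

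A region is called opened here when both libraries of the second group had it and neither library of the first did, and closed in the reverse case. From 0 h to 60 h in WT, 1 AP-1 region opened and 4 closed. Among all assigned regions 0.575% opened and 14.3% closed. Under equal peak numbers 5 AP-1 regions opened and 0 closed, with 2.62% and 3.89% among all assigned regions. In CBP, 1 opened and 7 closed, with 1.36% and 14.5% among all. Cut to equal peak numbers, 4 opened and 2 closed, with 3.64% and 5.57% among all. Closed AP-1 regions were thus a smaller share of the 72 than closed regions were of all assigned ones in each case. The balance between opened and closed reversed in both labels once peak numbers were equal. The opened calls added by the cut lay at regions with a deposited 0 h peak that fell below it, as given in the next paragraph.

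Most of the regions behind these counts were distal and lower than the tall regions at the genes. Their pileups lay on both sides of the median of all peaks, which was 22 to 36 per library. At ATF3 the region 1.3 kb before the start (chr9:130770472-130770982) opened in WT under both settings. Its pileups were 15 and 14 in WT 60 h, with no peak in WT 0 h, and 1 library of each CBP group had it. At FOS the region 36.9 kb after the end (chr7:98488830-98489662) opened in CBP under both settings, with pileups of 26 and 27 at 60 h. It was also called in all 4 WT libraries, at 23 to 40. The FOSL2 region 30.6 kb before the start (chr3:110789225-110789763) closed in both labels as deposited, from pileups of 47 to 78 at 0 h, as did the regions 43.5 kb after the FOS end (15 to 22 at 0 h) and 49.0 kb after the ATF3 end (27 to 40 at 0 h). With equal peak numbers, of these only the ATF3 region was still counted as closed, and in CBP alone. Inside ATF3, the region 21.6 kb after the start (chr9:130793866-130794591) closed in CBP under both settings. It had 36 and 46 in WT 0 h, 41 and 40 in CBP 0 h, 12 in 1 WT 60 h library and no peak in CBP 60 h. Closed in 1 label and as deposited only were the region 34.7 kb before the FOS start in WT, and in CBP those 34.3 kb before the FOS start, 22.1 kb before the ATF3 end and 0.2 kb before the JUN end. With equal peak numbers, opened calls were added in both labels at 22.4 kb before the FOS start and 16.3 kb after the ATF3 end. In WT they were added at 0.2 kb before and 21.3 kb after the JUN end, and in CBP at 44.9 kb after the FOS end. Each of these regions had a deposited peak in at least 1 library of the 0 h group concerned, which fell below the cut. The FOS region 22.4 kb before the start was called in all 8 deposited lists, with pileups of 32 to 52 at 0 h. The region 0.2 kb before the JUN end had 68 and 86 in WT 0 h.

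The height of the 38 AP-1 regions called in all 8 libraries was then compared by limma on log2 summit pileup, fitted over all 50575 such regions and adjusted by Benjamini-Hochberg. After centring each library on its median, 16 of 38 AP-1 regions were higher at 60 h than at 0 h in WT and 0 were lower, against 22.1% higher and 8.29% lower among all regions tested. Without the second WT 60 h library the number passing in WT was 7. In CBP 15 were higher and 4 lower, against 31.0% and 12.5%. The balance in CBP turned with floor scaling, which divides each library by its most frequent local background, to 0 higher and 6 lower, against 4.1% and 27.7% of all regions. In WT floor scaling gave 8 higher and 0 lower, against 6.23% and 11% of all regions. Over both labels 21 were higher and 3 lower, against 34.9% and 14.7%. The median difference of the 38 regions was 0.25 in WT and 0.26 in CBP on the log2 scale, where all regions had medians of 0.10 and 0.16. These counts depend on peak height. Among all regions tested, the median difference over both labels was 0.03 in the regions below the 25th percentile of mean pileup and 0.44 in those above the 90th. Of the 38 AP-1 regions, 10 lay above the 90th percentile and 1 below the 25th. After quantile normalization, which removes this dependence, 4 AP-1 regions were higher and 3 lower in WT, against 6.18% and 6.54% of all regions. In CBP 4 were higher and 6 lower, against 12.7% and 14.8%, and over both labels 6 and 5, against 16.0% and 17.1%.

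**Figure D3:**
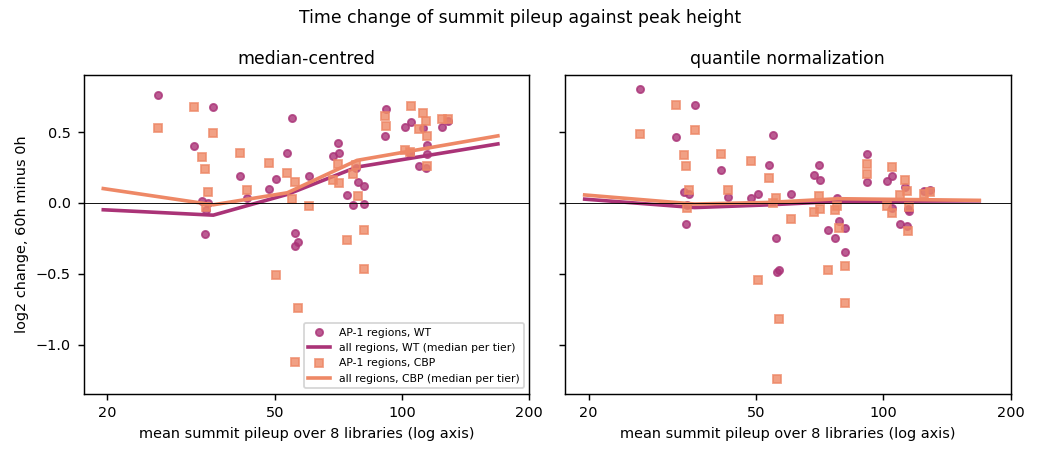
Log2 change in summit pileup from 0 h to 60 h against mean summit pileup over the 8 libraries (log axis) for the 38 AP-1 regions in WT (circles) and CBP (squares), with lines for the medians of all regions in 5 tiers of height. With median centring (left) the lines climb with height and the tall AP-1 regions follow them, and with quantile normalization (right) the lines stay near 0, while the JUNB region 1.4 kb inside the start lies at 0.35 in WT.

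The tall regions at the genes followed the height of all regions. The JUN start region was higher at 60 h by 0.54 ± 0.10 (log2 difference ± SE) in WT and 0.59 ± 0.10 in CBP (limma adjusted p = 2.37e-05 and 1.53e-06). After quantile normalization the differences were 0.09 and 0.06, with adjusted p = 0.518 and 0.610. The FOS start region gave 0.34 ± 0.10 in WT and 0.47 ± 0.10 in CBP (limma adjusted p = 0.00779 and 1.39e-04), which turned to −0.06 and −0.03 after quantile normalization. The region over JUND gave 0.53 and 0.63 with median centring and 0.11 and 0.16 with quantile normalization, the latter 2 not passing (limma adjusted p = 0.416 and 0.148). The region after the FOSL2 end gave 0.58 and 0.59, then 0.09 and 0.08. The directions at the FOS start, at 1.8 kb before the JUNB end and at 12.1 kb inside ATF3 flipped between the 2 scalings in both labels, and they are not given as changes.

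A few AP-1 regions stood apart from this trend. At JUNB, the region 1.4 kb inside the start (chr2:66215488-66216132) had scaled pileups of 67.9 and 79.3 in WT 0 h and 110.1 and 122.5 in WT 60 h. It was higher at 60 h in WT by 0.66 ± 0.11 with median centring and by 0.35 with quantile normalization (limma adjusted p = 8.25e-06 and 0.0226). In CBP it went from 73.6 and 76.7 to 105.2 and 114.3, higher by 0.55 ± 0.11 with median centring (limma adjusted p = 6.75e-05), but it did not pass with quantile normalization (0.151) or floor scaling (0.340). The difference between the labels did not pass (limma interaction, adjusted p = 0.762). The JUND region 6.4 kb before the start (chr2:59523064-59524637) rose in WT from 49.5 and 52.2 to 74.7 and 79.7, a difference of 0.60 ± 0.15 (limma adjusted p = 0.00102, and 0.0237 after quantile normalization). In CBP the same region was at 50.8 and 44.3 at 0 h and 49.8 and 47.1 at 60 h, a difference of 0.03 ± 0.15 that did not pass (limma adjusted p = 0.885). The FOSL2 region 20.5 kb before the start (chr3:110798300-110799892) was low but rose in WT from 22.9 and 23.1 to 36.7 and 41.3, by 0.76 ± 0.22 (limma adjusted p = 0.00603, and 0.00848 after quantile normalization). Without the second WT 60 h library its adjusted p was 0.105. In CBP it went from 20.2 and 18.7 to 29.1 and 27.1, a difference of 0.53 ± 0.22 that passed with median centring (limma adjusted p = 0.0453) but not with quantile normalization (0.0791), floor scaling (0.613) or without any 1 of the 4 CBP libraries or the second WT 60 h library (0.0518 to 0.204). The difference between the labels did not pass (limma interaction, adjusted p = 0.760).

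The FOS region 22.4 kb before the start (chr7:98426577-98427135) was higher at 60 h in both labels with median centring and with quantile normalization, but not with floor scaling. It had 25.1 and 34.4 in WT 0 h, 46.8 and 47.2 in WT 60 h, 30.6 and 27.3 in CBP 0 h, and 38.8 and 42.9 in CBP 60 h, with all 60 h values above all 0 h values. The difference over both labels was 0.59 ± 0.14 (limma adjusted p = 2.48e-04, and 5.84e-04 after quantile normalization). With both libraries of a group averaged, which leaves 4 samples, it still passed (limma adjusted p = 0.0298). Scaling by the library floor gave an adjusted p of 0.0508 over both labels, 0.0526 in WT and 0.650 in CBP. Within a label the call rested on single libraries. It was lost in WT without the first WT 0 h library (limma adjusted p = 0.145) or the second WT 60 h library (0.0561), and in CBP without the second CBP 0 h library (0.147), the first CBP 60 h library (0.0707) or the second (0.196). The region 9.8 kb after the FOS end (chr7:98461802-98464372) was also higher over both labels, by 0.54 ± 0.08, and by 0.21 after quantile normalization (limma adjusted p = 4.13e-08 and 0.0195). The ATF3 region 35.1 kb after the end (chr9:130864792-130866364) was low at 0 h, with 24.4 to 30.0, and had 38 and 29.5 in WT 60 h and 42.9 and 47.1 in CBP 60 h. Its difference over both labels was 0.54 ± 0.14 (limma adjusted p = 0.00123, and 0.00118 after quantile normalization), and it did not pass with averaged pairs (0.0593) or floor scaling (0.116).

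Next to the JUNB start, the region ending 0.1 kb before it (chr2:66213143-66214021) had 86.4 and 84.6 in WT 0 h, 84.0 and 82.6 in CBP 0 h, 121.5 and 132.9 in WT 60 h, and 130.1 and 137.2 in CBP 60 h. It was higher at 60 h in both labels with median centring, by 0.57 ± 0.10 and 0.68 ± 0.10, and with quantile normalization it passed in CBP only, at 0.25 (limma adjusted p = 0.0318, and 0.165 in WT). The difference between the labels was 0.11 and did not pass (limma interaction, adjusted p = 0.757). The region over the FOSL2 end itself (chr3:110842862-110843209) was called in 4 libraries, 1 of WT 0 h, both of CBP 0 h and 1 of CBP 60 h, with pileups of 68 to 121. Further regions that passed over both labels with median centring, but not after quantile normalization, lay 9.1 kb and 5.9 kb before the FOSB start, 34.8 kb and 1.3 kb before the FOSL2 start, 2.7 kb after the FOSL2 end and 5.4 kb after the ATF3 end, with differences of 0.25 to 0.46.

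With median centring, 4 AP-1 regions were lower at 60 h in CBP and 0 in WT, while all regions were also lower more often in CBP, and after quantile normalization the counts were 6 and 3. A difference between the labels passed the interaction test at 1 of the 38 regions, the first one described here. The ATF3 region 26.6 kb inside the gene (chr9:130798841-130799984) had recovered pileups of 97 and 113 in WT 0 h, 48 and 39 in WT 60 h, 100 and 88 in CBP 0 h, and 26 and 20 in CBP 60 h. Scaled, these were 71.6 and 74.7, 60.7 and 57.6, 65.1 and 75, and 36.0 and 28.6. The CBP 60 h libraries were the lowest, the WT 60 h libraries came next, and no group overlapped them. It fell in CBP by 1.12 ± 0.15 on the log2 scale, to 0.459 times the 0 h level (limma adjusted p = 6.72e-09). Over both labels the difference was −0.72 ± 0.10, and all 4 libraries at 60 h lay below all 4 at 0 h. In WT the difference was −0.31 ± 0.15 and did not pass (limma adjusted p = 0.105), although it passed after quantile normalization at −0.49 (adjusted p = 0.0206).

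The JUN region 25.3 kb after the end (chr6:153712945-153714359) fell in CBP from 60.6 and 63.0 to 41.5 and 32.9, by 0.74 ± 0.14 on the log2 scale (limma adjusted p = 2.46e-05). In WT it went from 73.8 and 73.4 to 58.2 and 63.5, a difference of −0.28 ± 0.14 that did not pass (limma adjusted p = 0.143) but passed after quantile normalization at −0.47 (adjusted p = 0.0221). The ATF3 region 24.9 kb after the end (chr9:130854599-130855999) fell in CBP from 50.2 and 52.0 to 34.6 and 37.1, by 0.51 ± 0.15 (limma adjusted p = 0.00543). Without the first CBP 60 h library this adjusted p was 0.0539. The FOSL1 region 1.4 kb before the start (chr2:6427448-6428740) fell in CBP from 86.6 and 86.0 to 63.7 and 61.4, by 0.46 ± 0.12 (limma adjusted p = 0.00136). All 4 passed in CBP under quantile normalization and floor scaling as well.

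The design next asks how CBP and WT differ. At 0 h no AP-1 region passed in summit pileup (limma, lowest adjusted p = 0.0866). Among all regions tested, 1.42% were higher and 3.91% lower in CBP at the same adjusted threshold. An unadjusted limma p under 0.05, a looser threshold, was reached by 5 of 38 AP-1 regions. Its share among all regions was not computed. Differences of the 38 regions ran from −0.40 to 0.30 with a median SE of 0.11. By calls, 2 AP-1 regions opened and 2 closed in CBP, against 2.23% and 3.35% of all assigned regions. At equal peak numbers it was 1 and 1, against 1.85% and 2.35%. The opened ones were 34.3 kb before the FOS start, with pileups of 35 and 28 in CBP 0 h, and 22.1 kb before the ATF3 end, with 19 and 12. The closed ones were 36.9 kb after the FOS end and 16.9 kb after the JUN end (chr6:153704520-153705366), the last with pileups of 40 and 38 in WT 0 h, 25 in 1 WT 60 h library and no peak in CBP. In equal lists the JUN region 16.9 kb after the end remained closed, and the region 21.3 kb after the JUN end was counted as opened. There 1 WT 0 h library had a deposited peak, at 34, that fell below the cut.

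At 60 h, 5 AP-1 regions were lower in CBP than in WT and 2 were higher, of 38. Among all regions tested 7.74% were lower and 7.69% higher. After quantile normalization 5 were lower and 1 higher, against 8.24% and 5.77%. Floor scaling gave 6 lower and 0 higher, against 12.8% and 3.39%. Without the library weights described below, 5 were lower and 2 higher, against 10.3% and 11.7%. The 7 passing regions became 4 without the second WT 60 h library, and 4 without the second CBP 60 h library. The 5 lower regions lay at ATF3 (2), JUN, JUND and FOSL1, and none of them held a gene end. The median difference of all 38 was −0.05, against 0.06 for all regions, and 31 of the 38 did not pass in either direction.

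In the 5 lower regions the pileup of CBP 60 h was 29.8% to 45.8% less than that of WT 60 h. The ATF3 region 26.6 kb inside the gene was at 60.7 and 57.6 in WT 60 h and 36.0 and 28.6 in CBP 60 h, a difference of −0.88 ± 0.17 (limma adjusted p = 7.99e-05). The ATF3 region 24.9 kb after the end had 68.3 and 57.6 in WT 60 h and 34.6 and 37.1 in CBP 60 h, a difference of −0.81 ± 0.18 (limma adjusted p = 6.31e-04). For the JUN region 25.3 kb after the end the values were 58.2 and 63.5 against 41.5 and 32.9, a difference of −0.72 ± 0.16 (limma adjusted p = 0.00113). In each of these 3 regions both CBP 60 h libraries lay below every other library of the series. The JUND region 6.4 kb before the start, at 74.7 and 79.7 against 49.8 and 47.1, differed by −0.67 ± 0.17 (limma adjusted p = 0.00282). Here the CBP 60 h level was that of the 0 h libraries, which ran from 44.3 to 52.2, and the WT 60 h libraries stood above. At the FOSL1 region 1.4 kb before the start, the values were 74.7 and 106.3 against 63.7 and 61.4, a difference of −0.51 ± 0.14 (limma adjusted p = 0.00678). Both CBP 60 h libraries lay below every other library there as well. The WT 60 h libraries differed most from each other there, and without the second of them the difference was −0.26 and did not pass (adjusted p = 0.355). Without the second CBP 60 h library it missed narrowly (adjusted p = 0.0544).

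**Figure D4:**
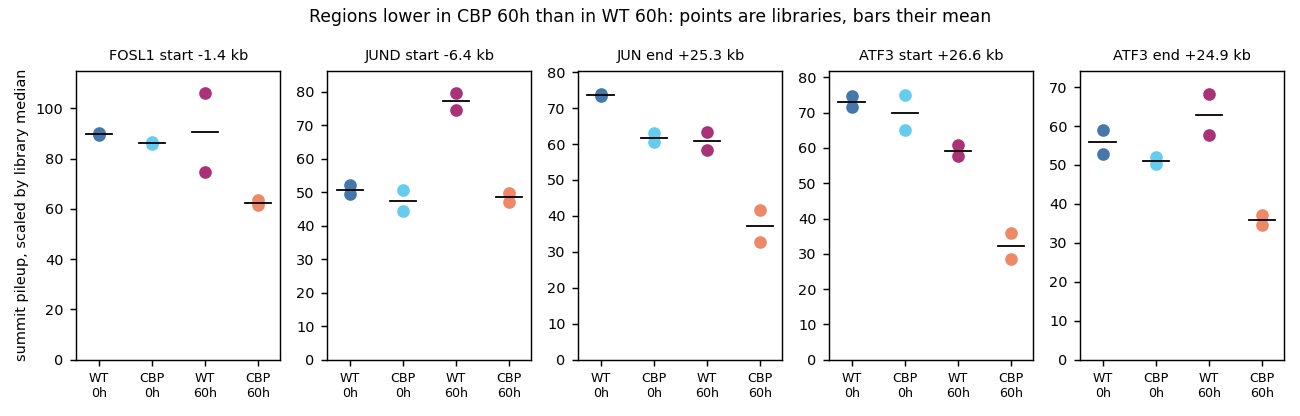
Summit pileup scaled by library median at the 5 AP-1 regions that were lower in CBP 60 h than in WT 60 h, 1 panel per region, with points for the libraries of each group and bars for their mean. The CBP 60 h points lie below all others at JUN, at FOSL1 and at both ATF3 regions. At JUND the WT 60 h points stand above the rest, and at FOSL1 the WT 60 h points are spread from 74.7 to 106.3.

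At ATF3 the regions went both ways. While the regions 26.6 kb inside the gene and 24.9 kb after its end were lower in CBP 60 h, the region 1.3 kb before its end (chr9:130827506-130828405) was higher, at 63.7 and 68.6 against 49.4 and 42.8 in WT 60 h. This difference of 0.52 ± 0.17 passed with median centring and quantile normalization (limma adjusted p = 0.0219 and 0.0403) but not with floor scaling (0.170), nor without the second WT 60 h library (0.167), the first CBP 60 h library (0.0566) or the second (0.135). The FOS region 18.4 kb before the start (chr7:98429476-98431142) was higher in CBP 60 h by 0.33 ± 0.12, at 157.8 and 137.2 against 129.1 and 106.3. Its adjusted p was 0.0461 with median centring and 0.0908 with quantile normalization (limma). It did not pass without the second WT 60 h library (0.437), the first CBP 60 h library (0.402) or the second (0.0640).

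The tall regions at the genes showed no difference between CBP and WT at 60 h that passed. The difference was 0.26 at the FOS start (95% interval 0.02 to 0.49, limma adjusted p = 0.126) and 0.19 at the JUN start (interval −0.03 to 0.41, adjusted p = 0.261). It was 0.20 at FOSB (interval −0.04 to 0.44), 0.11 at JUND (interval −0.12 to 0.34), −0.03 after the FOSL2 end (interval −0.25 to 0.19) and −0.19 before the JUNB end (interval −0.43 to 0.04). The interval at the FOS start lay above 0. The others leave room for differences smaller than those of the 5 lower regions in either direction.

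**Figure D5:**
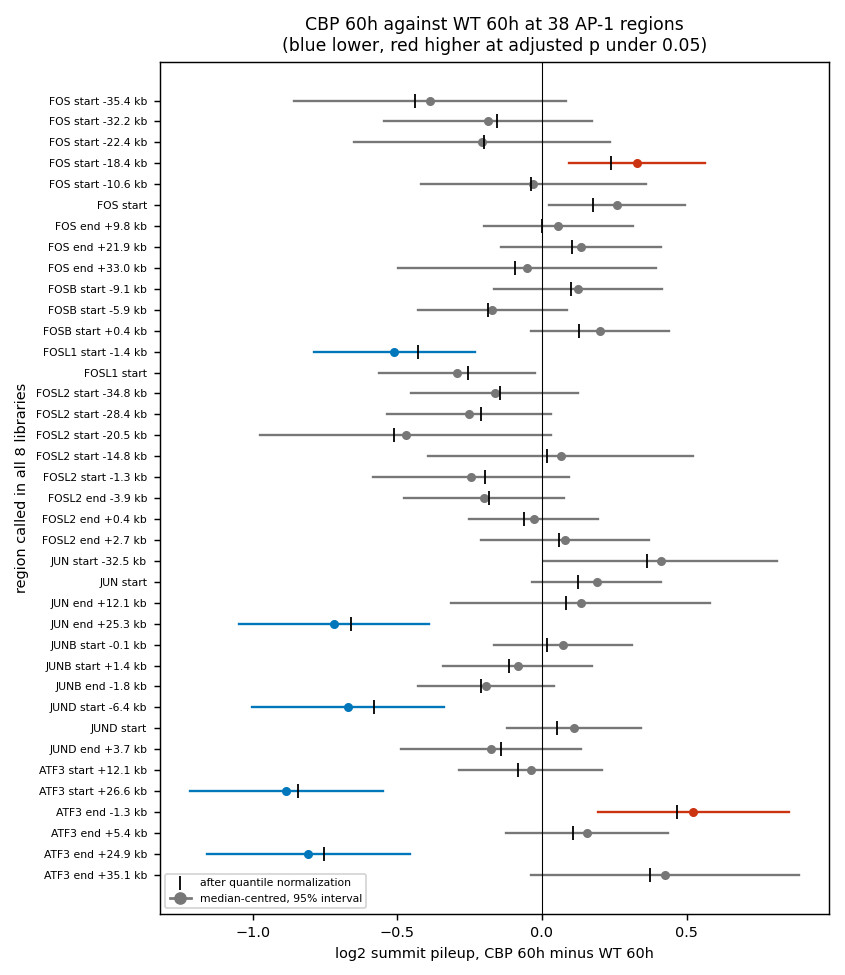
Log2 difference in summit pileup, CBP 60 h minus WT 60 h, at the 38 AP-1 regions called in all 8 libraries, with 95% intervals from limma and vertical ticks for the value after quantile normalization. The 5 blue regions at FOSL1, JUND, JUN and ATF3 lie between −0.51 and −0.88 and the 2 red ones at 0.33 and 0.52. The tall regions at the genes lie between the blue and the red ones and did not pass.

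By calls at 60 h, 1 AP-1 region opened and 1 closed in CBP relative to WT, against 3.14% and 3.17% of all assigned regions. With equal peak numbers the counts were again 1 and 1, against 2.77% and 3.45%. The closed region lay inside JUN, 0.2 kb before the end (chr6:153686944-153687463). It was called in all 6 other libraries, with pileups of 68 and 86 in WT 0 h, 82 and 68 in CBP 0 h and 51 and 47 in WT 60 h, and had no separate peak in CBP 60 h. The neighbouring tall region over the JUN start was called in CBP 60 h at 112 and 118. The opened region lay 44.9 kb after the FOS end (chr7:98496902-98497864), with pileups of 23 and 23 in CBP 60 h, 18 in 1 CBP 0 h library and no peak in WT.

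The time course of 1 AP-1 region differed between the labels by test. At the ATF3 region 26.6 kb inside the gene, the change from 0 h to 60 h in CBP was lower than that in WT by 0.82 ± 0.21 on the log2 scale (limma interaction, adjusted p = 0.0112, and 0.0343 after quantile normalization). Among all regions tested 2.14% had a higher and 2.38% a lower change in CBP. The call was lost without the first WT 60 h library (adjusted p = 0.0548), the second CBP 0 h library (0.0868) or the second CBP 60 h library (0.0922). For the ATF3 region 24.9 kb after the end the interaction was −0.68 ± 0.22 (limma adjusted p = 0.0565), and for the JUND region 6.4 kb before the start it was −0.57 ± 0.21 (adjusted p = 0.0989), neither of which passed. The comparisons of CBP over time and of CBP with WT at 60 h share the CBP 60 h libraries, so the lower values at ATF3, JUN and FOSL1 in both are not separate observations.

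Genes around the AP-1 factors were described from lists of their partners, upstream kinases and known targets. The partner list of 19 other basic leucine zipper genes, such as the ATF, BATF, MAF and BACH families, had 58 regions called in all 8 libraries. In CBP against WT at 60 h, 3 were higher and 3 lower, against 7.69% and 7.74% of all regions. Among the 42 regions of 16 upstream serum response and MAP kinase genes, 4 were higher and 3 lower. SRF, the serum response factor that drives immediate early genes, had 3 regions, none of which passed in this comparison. Among 60 regions of the known AP-1 target genes, 14 were lower and 3 higher in CBP at 60 h, against 7.74% and 7.69% of all regions. Their median difference was −0.21, against 0.06 for all regions. After quantile normalization 13 were lower and 1 higher, against 8.24% and 5.77%. With median centring the lower ones included 3 of 11 regions of the adhesion receptor CD44 and 2 of 4 of the chemokine CXCL8. They also included 1 each at IL6, VIM, SPP1, LOX, PLAU and DUSP1. These genes were singled out after their values were seen. By calls, the gene with the largest net number of closed regions in this comparison was MMP2, a gelatinase, with 2. In summit pileup, however, 1 of its 5 regions tested was higher in CBP at 60 h and 0 were lower, with median centring and with quantile normalization. Over time, the target list had 19 regions higher and 0 lower in WT, against 22.1% and 8.29% of all regions. In CBP it had 12 higher and 9 lower, against 31.0% and 12.5%. After quantile normalization the counts were 5 and 1 in WT, against 6.18% and 6.54%, and 3 and 16 in CBP, against 12.7% and 14.8%.

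Markers of other cell types were read in the same comparison. Of 27 fibroblast marker regions, 4 were lower and 1 higher in CBP at 60 h, against 7.74% and 7.69% of all regions. After quantile normalization the counts were 6 and 0, against 8.24% and 5.77%. With median centring the lower ones were both regions of DCN, 1 of 3 of COL1A1 and 1 of 5 of PDGFRB. The higher one was the only region of LUM tested, at 0.73, and no region of PDGFRA, TCF21, THY1 or TWIST2 passed. Of 23 satellite and myogenic marker regions 4 were higher and 1 lower, of 22 endothelial regions 2 and 3, of 17 adipocyte regions 3 and 1, and of 9 immune and 3 neural regions none passed. Among all regions 7.69% were higher and 7.74% lower in this comparison. After quantile normalization the counts were 4 and 3 for satellite and myogenic, 1 and 3 for endothelial and 3 and 1 for adipocyte regions. No immune or neural region passed then, and 5.77% and 8.24% of all regions did. From 0 h to 60 h, 13 of 27 fibroblast marker regions were higher and 0 lower in WT with median centring, against 22.1% and 8.29% of all regions, and 13 and 1 in CBP, against 31.0% and 12.5%. With quantile normalization the counts were 1 and 0 in WT, against 6.18% and 6.54%, and 3 and 3 in CBP, against 12.7% and 14.8%. For the 23 satellite and myogenic regions the counts were 2 and 3 in WT and 9 and 4 in CBP with median centring. With quantile normalization they were 0 and 5 in WT and 5 and 4 in CBP, beside the same shares of all regions. Fewer cells of a type and less accessibility per cell cannot be told apart in these bulk libraries, and the part of cell composition in the AP-1 values was not tested.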

How the data were processed

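ATAC-seq peaks were deposited for 8 libraries, 1 list each. The submitters' processing notes name Trimmomatic, MACS2 2.1.0 and the build Sscrofa11.1. The aligner, any read shift and the handling of duplicate or mitochondrial reads, all of which bear on peak height and width, are not given in the sources used. Each peak carries the authors' score, fold enrichment, −log10 p-value and, also on the −log10 scale, q-value.

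From the authors' fold, (pileup + 1)/(background + 1), and their Poisson −log10 p, summit pileups were solved, and 100% came out whole at a tolerance of 0.01. A region's height in a library is that of its tallest peak. The fit used limma 3.58.1 in R 4.3.3 on log2 pileup, with a variance trend, 1 fit of the 4 groups and a threshold of adjusted p = 0.05. Tested on simulated data, the planned fit with 1 spread for both times called too many unchanged regions at 60 h, so limma library weights by time were added, 1.36 at 0 h and 0.737 at 60 h. This change was made after the data had been seen, and the planned fit without weights is given as an alternative.

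Gene ends came from RefSeq on Sscrofa11.1, without strand, exons or introns, so the planned region nearest a transcription start became the one nearest a gene end. No sequence was used here, and the planned promoter search was not run. MRTFA, MRTFB, HMOX1 and S100B were not analysed here. Regions were named when opened or closed, when past the threshold (up to the 20 smallest p per comparison), when nearest a gene end or when tallest for their gene, and list genes by net opened or closed regions. The 8 genes and all lists were chosen with earlier results of these data known, so no list was tested. With 2 libraries on each side, the smallest exact p is 0.333. Alternatives were equal peak numbers, stricter peaks, overlap and links, other scalings, filters and variance settings, a replicate block, averaged pairs (chosen after seeing the data) and leaving out each library.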

Additional observations from a re-analysis of the deposited data

Results flagged for a closer look

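The ATF3 region 26.6 kb inside the gene (chr9:130798841-130799984) changed differently from 0 h to 60 h in CBP and in WT. The difference between the changes was −0.82 on the log2 scale, tested as the interaction in limma. Scaled pileups were 71.6 and 74.7 in WT 0 h, 60.7 and 57.6 in WT 60 h, 65.1 and 75 in CBP 0 h, and 36.0 and 28.6 in CBP 60 h. The part of depth, which was higher at 0 h, in this value was not tested.

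At the FOSL1 start region (chr2:6430079-6431475) the libraries moved in opposite directions over time, up in WT from 81.2 and 82.0 to 86.0 and 91.5 and down in CBP from 78.2 and 87.7 to 70.6 and 74.3. The difference between the changes was −0.31 on the log2 scale and did not pass in the limma interaction test. The opposite signs rest on the scaling, since the WT difference was 0.12 with median centring, −0.18 with quantile normalization and −0.01 with floor scaling, while that in CBP was −0.19, −0.45 and −0.55.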

How the results depend on the processing

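The counts of called, opened and closed regions depended on the peak rule. Per library, the mean number of AP-1 regions called was 43 in WT 0 h and CBP 0 h with equal peak numbers. With a −log10 q of at least 5 it was 50.5, 43.5, 50.5 and 41 in WT 0 h, WT 60 h, CBP 0 h and CBP 60 h. All assigned regions were then called in 60.5%, 36.9%, 59.1% and 36.8% of cases. With 50% of a region covered the AP-1 mean was 50, 40, 52.5 and 40, against 65.7%, 33.9%, 63.6% and 34.9%. Links within 10 kb left 32 AP-1 regions, with means of 26.5, 23.5, 25.5 and 23.5. Counting every region within 50 kb gave 152 regions, with means of 124.5, 101.5, 120.5 and 94. With equal peak numbers, opened and closed regions were 5 and 0 over time in WT, 4 and 2 in CBP, and 1 and 1 for CBP against WT at 0 h. With a −log10 q of at least 5, opened regions were 0 over time in WT, 2 over time in CBP and 1 for CBP at 0 h, and closed regions were 2 for CBP at 60 h. With 50% covered, closed regions were 2 over time in WT, 0 for CBP at 0 h and 4 for CBP at 60 h, where opened ones were 2. Within 10 kb, closed regions were 0 over time in WT, 1 over time in CBP and 0 for CBP at 0 h, and opened ones were 0 over time in CBP and 0 for CBP at either time. With every region within 50 kb, 152 in number, opened and closed were 2 and 14 over time in WT and 3 and 19 in CBP. Closed were then 6 and 5 for CBP at 0 h and 60 h. Shares of all assigned regions opened or closed were not computed under the stricter, 10 kb and every-region rules. Without 1 library each, opened and closed ranged from 1 to 3 and 5 to 9 over time in WT, 1 to 3 and 7 to 13 in CBP, 4 to 6 and 2 to 6 for CBP at 0 h, and 1 to 4 and 1 to 4 for CBP at 60 h. The remaining library of a group then decided its call alone, which is the looser rule.

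The numbers of AP-1 regions past the threshold in summit pileup were 16 over time in WT, 19 in CBP, 0 and 7 for CBP at 0 h and 60 h, 24 over both labels and 1 for the interaction. Quantile normalization gave 7, 10, 1 for CBP at 0 h and 11 over both labels. The 1 at 0 h was higher, beside 1.32% higher and 3.43% lower among all regions. Floor scaling gave 8, 6, 13 over both labels and 4 for the interaction. Over both labels 7 were higher and 6 lower, against 10.4% and 30.2% of all regions. For the interaction 0 were higher and 4 lower, against 0.651% and 5.46%. Floor scaling moved the median of all regions over time in CBP from 0.16 to −0.20, and quantile normalization moved it to 0.02. Without a variance trend 12.2% of all regions were higher and 6.79% lower over time in WT. For CBP at 60 h the shares were 5.71% and 5.35%, and for the interaction 0.797% and 0.504%. Shares of all regions also moved without 1 library each. The numbers of AP-1 regions without a variance trend were 10 higher over time in WT, 4 lower for CBP at 60 h and 0 for the interaction. Without 1 library each they ranged from 7 to 18 over time in WT, 14 to 19 in CBP, 4 to 7 for CBP at 60 h, 21 to 24 over both labels and 0 to 1 for the interaction. The low value in WT came without the second WT 60 h library, and that library and the second CBP 60 h library each gave 4 for CBP at 60 h. Without library weights every one of these numbers was the same, while regions of all genes higher and lower in CBP at 60 h were then 11.7% and 10.3%. With both libraries of a group averaged, 17 passed over both labels, 15 of them higher.

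Same-numbered libraries did not deviate together (correlations of −0.04 to 0.05), so the numbers do not pair them. With a replicate block the number over time in WT was 17 and no other number moved.

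Of 999 values of named regions under the alternatives, 847 kept their direction and call, 139 kept their direction only and 13 changed direction. After quantile normalization the time differences over both labels were −0.0399 at 18.4 kb before the FOS start, −0.0436 at the FOS start, −0.0466 at 0.4 kb inside FOSB, −0.0525 at 12.1 kb inside ATF3 and −0.123 at 1.8 kb before the JUNB end. In WT they were −0.0602 at the FOS start, −0.0449 before the JUNB end and −0.0338 inside ATF3. In CBP they were −0.0271 at the FOS start, −0.0712 inside ATF3, −0.0228 at 5.9 kb before the FOSB start and −0.200 before the JUNB end, where floor scaling gave −0.0951. The cause of these changes was not tested beyond the dependence on peak height given above.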
